A study of Homo sapiens with 12 samples.

Results

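BEAS-2B cells, a line derived from human bronchial epithelium, were compared after 1 h with an extract of poultry house dust and in medium alone. The comparison uses 4 of the 12 arrays of the series, chosen by their titles: 2 arrays of BEAS-2B cells given 0.25% dust extract for 1 h, and 2 arrays of BEAS-2B control cells. The other arrays, which are set beside these where the same genes differ, hold BEAS-2B cells after 3 h of the 0.25% extract, and THP-1 monocytic leukemia cells given 0.1% extract for 1 h or 3 h or medium alone, again with 2 arrays a group. All cells, the controls included, had been kept without serum overnight before they received extract or medium. The labels name no duration for the control cells, so the 1 h and 3 h groups are set against the same control arrays. BEAS-2B is a single virally immortalized line, and the labels do not say whether the 2 arrays of a group came from separate cultures. The p-values thus reflect the scatter between the 2 arrays of a group, pooled over all 12 arrays of both lines. That scatter may be purely technical.

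Airway epithelial cells are the first cells that inhaled dust meets. Bacterial and fungal products in organic dust are sensed by pattern recognition receptors, and proteases in it by protease-activated receptors. Both kinds of receptor activate the transcription factor NF-kB and the MAP kinases within minutes. The first wave of transcription that follows needs no new protein. It contains chemokines that draw in leukocytes, cytokines such as TNF, immediate-early transcription factors of the FOS, EGR and NR4A families, and the inhibitors that later switch the signal off.

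The cell line matched its label on marker genes. Of 20 markers of bronchial and airway epithelium on the array, 18 were well above background on both 1 h dust arrays and on both control arrays, among them the keratins KRT5, KRT7 and KRT19, the adhesion genes EPCAM and CDH1, and CLDN1, a tight junction protein. On the THP-1 control arrays 1 of the 20 was. The monocyte genes PTPRC, SPI1 and CSF1R were not above background on any of the 4 BEAS-2B arrays, while CD14, CD68, ITGB2 and AIF1 were on all 4, and LYZ was on both 1 h dust arrays and 1 control array. None of 11 lymphocyte and none of 7 endothelial markers was well above background on both arrays of either group. BEAS-2B cells lacked the secretory cell gene SCGB1A1 and the ciliated cell gene FOXJ1, and 9 of 19 fibroblast and mesenchymal markers, VIM and CDH2 among them, were above background in both groups. The summed level of the epithelial markers was 15.20 and 15.12 log2 units on the 1 h dust arrays, against 14.86 and 14.78 on the control arrays, and that of the monocyte markers was 11.10 and 10.87 against 11.08 and 10.96. Among the epithelial markers CLDN1 stood at 13.01 and 12.70 log2 on the dust arrays, against 11.61 and 11.43 on the control arrays. Of these markers only LAMB3 passed an adjusted p under 0.05 (below), and CLDN1 did not (adjusted p = 0.288). KRT8, KRT14, KRT18, CDH1 and SFN also lay higher on both dust arrays than on both control arrays. KRT7 (11.94 and 11.93 against 11.98 and 12.16) and ITGB4 lay lower on both dust arrays. Of all features 16.3% lay higher and 27% lower in this way, and none of these 7 markers was called. For KRT5 (11.08 and 11.36 against 11.33 and 11.20) the groups overlapped. The median change of the 18 epithelial markers tested was 0.15 log2, against -0.04 log2 for all features. The part of these markers in the results was not tested.

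Replicate arrays correlated at r = 0.994 for 1 h dust and 0.995 for control over all features tested, and dust with control arrays at 0.983 to 0.986. The median SD between replicates was 0.105 log2 for 1 h dust and 0.0851 log2 for control. Between 15718 and 17045 probes were well above background on each of these arrays, and the median signal was 79.8 to 83.5. Over the 6 BEAS-2B arrays, the first principal component (50.5% of variance) held the 1 h dust arrays at -2.16 and 4.11, the 3 h dust arrays at 36.1 and 19, and the control arrays at -29.9 and -27.1. The second (25.6%) held the 1 h dust arrays at 22.2 and 21.5, the control arrays at -9.05 and -8.41, and the 3 h dust arrays far apart, at -2.44 and -23.8. The 3 h arrays enter the estimate of the spread, and so do the THP-1 arrays, also for genes not above background in THP-1 cells. With only the 6 BEAS-2B arrays normalized and fitted, 20 calls of named genes were lost (closing section).

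The 4 genes with the largest rises whose promoters were in the promoter table were CXCL2, CCL20, TNF and CXCL8. Their promoters are shown since these genes carry the response described below. Each is the 250 bases before the gene's start, 5′ to 3′ on the gene's strand, from RefSeq on GRCh38.p14. CXCL2 lies at chr4:74099196-74099445 on the minus strand, CCL20 at chr2:227813592-227813841, TNF at chr6:31575315-31575564 and CXCL8 at chr4:73740319-73740568, all on the plus strand. Capitals mark matches to the motifs searched, on either strand.
CXCL2: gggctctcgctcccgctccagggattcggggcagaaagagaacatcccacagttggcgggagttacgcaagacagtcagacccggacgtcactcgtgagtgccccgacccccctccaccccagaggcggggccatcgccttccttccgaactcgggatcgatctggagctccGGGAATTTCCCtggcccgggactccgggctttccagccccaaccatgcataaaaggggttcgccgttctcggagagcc
CCL20: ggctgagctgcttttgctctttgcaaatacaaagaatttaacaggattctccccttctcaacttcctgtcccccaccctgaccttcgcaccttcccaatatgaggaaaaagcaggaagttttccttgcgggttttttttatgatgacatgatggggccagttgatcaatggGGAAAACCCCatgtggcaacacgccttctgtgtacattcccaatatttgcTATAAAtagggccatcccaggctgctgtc
TNF: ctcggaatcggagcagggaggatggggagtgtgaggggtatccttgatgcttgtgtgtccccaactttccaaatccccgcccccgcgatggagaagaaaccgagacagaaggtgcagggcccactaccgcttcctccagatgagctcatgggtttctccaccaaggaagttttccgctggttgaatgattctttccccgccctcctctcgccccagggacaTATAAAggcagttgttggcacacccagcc
CXCL8: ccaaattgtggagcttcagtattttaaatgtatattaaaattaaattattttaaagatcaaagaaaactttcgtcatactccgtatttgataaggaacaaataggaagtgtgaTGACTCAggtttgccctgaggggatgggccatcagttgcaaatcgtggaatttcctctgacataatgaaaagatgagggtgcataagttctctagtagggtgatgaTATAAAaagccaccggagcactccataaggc
In CXCL2 the capitals are a pair of overlapping kappa B matches, 1 on each strand, that start at -78 and -77 from the gene's start. CCL20 has a kappa B match from -79 to -70 and a TATA box at -29. TNF has a TATA box at -29. CXCL8 has an AP-1 match from -137 to -131, which reads the same class of letters on both strands, and a TATA box at -31. The kappa B site and the CArG box, bound by serum response factor, were searched by their consensus. The other motifs were TGANTCA for AP-1, TGACGTCA for the cAMP response element, GCGTGGGCG for EGR proteins and TATAAA for the TATA box. The cAMP response element and the AP-1 motif cannot match at the same place, while a CArG box can hold a TATA box.

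Of the 136 named genes that rose (below), 101 had a promoter in the table, and 20.8% of these held a kappa B match, against 6.05% of the 9203 promoters of all genes tested and 5.05% of all 27305 promoters of the table. A TATA box was present in 25.7% of the genes that rose, 5.7% of all genes tested and 11.1% of all promoters. AP-1 matches stood in 8.91%, 3.97% and 6.6% of these sets, and cAMP response elements in 4.95%, 2.98% and 1.77%. A CArG box was found in 1.98% of the genes that rose, 1.03% of all genes tested and 1.14% of all promoters, and an EGR site in 0.99%, 1.16% and 0.71%. Of the 7 named genes that fell, 4 had a promoter in the table, and 1 of these held a kappa B match. These shares describe letters in a window and were not tested.

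Across 15489 features (11422 genes and 4067 probes without a gene symbol), the response at 1 h was almost wholly upward. At an adjusted p under 0.05, 171 features rose (1.1% of those tested) and 12 fell (0.0775%), which is 1.18% of all features. By contrast, the 2 dust arrays lay above both control arrays for 2517 features (16.3%) and below both for 4186 (27%), and the median change of all features was -0.04 log2. Among the rises 148 reached 2-fold (0.956%), 74 reached 4-fold, 32 reached 8-fold, 16 reached 16-fold and 9 reached 32-fold. Only 4 of the falls reached 2-fold (0.0258%). With an unadjusted p under 0.05 there were 976 features (6.3%). Both control arrays were not well above background for 29 of the rises, so that their folds are lower bounds ("at least"), set against the lowest signal well above background on each control array. Since each group has 2 arrays, counts depend on every array: 88 features were called without dust replicate 1, 73 without dust replicate 2, 69 without control replicate 1 and 81 without control replicate 2. The count was 280 without either 3 h dust array of BEAS-2B, 398 when only the 4 arrays compared were normalized and fitted, and 113 with the 6 BEAS-2B arrays. Of the genes at the edge, SIK1, LAMB3 and RND3 lay just inside the threshold at adjusted p = 0.0476, 0.0497 and 0.0498, and C15orf39 and DUSP8 just outside it at 0.0519 each.

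**Figure D1:**
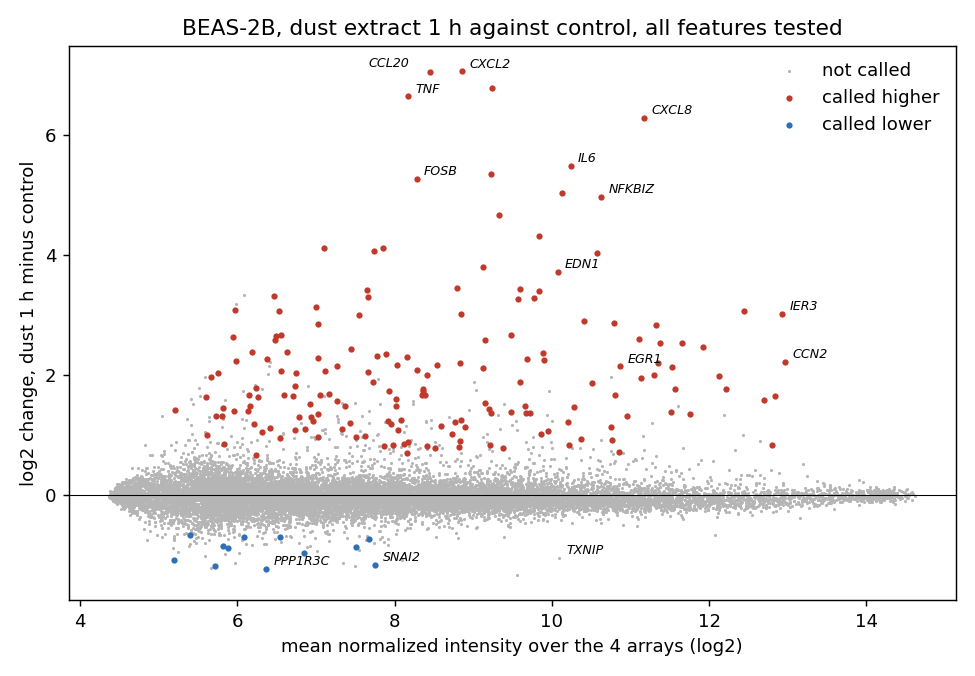
Change of each of the 15489 features in BEAS-2B cells after 1 h of dust extract relative to control (log2, vertical axis) against its mean normalized log2 intensity over the 4 arrays (horizontal axis). Red points are the 171 features called higher and blue points the 12 called lower at an adjusted p under 0.05; the rises reach 7.06 log2, and the largest fall of a named gene, PPP1R3C, is -1.24 log2.

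Chemokines held the largest changes. Of 19 chemokine genes listed, 13 passed the filter on detection, 4 of them with both control arrays not above background, and 6 of the 13 rose (1.1% of all features did): CXCL8, CXCL2, CXCL1, CXCL5, CCL20 and CCL2. The median change of the 13 was 1.83 log2, the fitted value of CXCL6, which was not called and had both control arrays not above background; with such genes at their bound (0 where there is none) the median was 1.49 log2. The count of rises was 4 to 5 without 1 of the 4 arrays. The counts of rises in the lists below stand beside the same 1.1% of all features, and some genes are counted in several lists. CXCL2, which attracts neutrophils, had levels of 12.26 and 12.52 log2 on the dust arrays, against 5.19 and 5.47 on the control arrays. That is at least 107-fold higher, with a fitted change of 7.06 ± 0.54 log2 (SE) and adjusted p = 1.55e-04. CCL20, the ligand of CCR6 on dendritic cells and lymphocytes, stood at 11.80 and 12.14 log2 on the dust arrays, against 4.69 and 5.18 on the control arrays. It was at least 80.2-fold higher (fitted change 7.04 ± 0.91 log2, adjusted p = 0.00304). In both genes the replicates lay close together and the groups far apart.

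CXCL8 encodes interleukin-8, the main human neutrophil chemoattractant. Its level was 14.36 and 14.27 log2 on the dust arrays, against 7.67 and 8.40 on the control arrays, a 77.7-fold rise (6.28 ± 0.31 log2, adjusted p = 1.15e-05), and its 2 probes changed by 6.28 and 6.98 log2. CXCL1, another ligand of the neutrophil receptor CXCR2, gave 12.55 and 12.74 log2 with dust, against 7.55 and 7.69 without, a 32.6-fold rise (5.03 ± 0.39 log2, adjusted p = 1.55e-04). CXCL5, a further ligand of this receptor, was at 6.79 and 7.41 log2 on the dust arrays, against 4.70 and 5.05 on the control arrays, at least 2.74-fold higher (fitted 2.23 ± 0.24 log2, adjusted p = 8.55e-04). The other CXCL5 probe changed by a fitted 1.45 log2. CCL2, which recruits monocytes, had 12.41 and 12.77 log2 in dust-treated cells, against 8.47 and 8.64 in control cells, a 16.4-fold rise (4.03 ± 0.73 log2, adjusted p = 0.026). Both dust arrays were above both control arrays in each of the 6 genes, and no called feature had groups that overlapped. Calls of 2 of them were lost on leaving out arrays: CCL20 without dust replicate 2 or control replicate 1 (adjusted p up to 0.0555), and CCL2 without any 1 of the 4 arrays (up to 0.256).

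Of 23 cytokine genes listed, 20 passed the filter, 4 of them with both control arrays not above background, and 7 rose: TNF, IL6, IL1A, IL1B, LIF, IL24 and GDF15. The median of the 20 was 0.82 log2, and 0.73 with genes dim in control cells at their bound. TNF, the founding member of its cytokine family, had 11.41 and 11.57 log2 on the dust arrays, against 4.79 and 4.91 on the control arrays, at least 57.4-fold higher (fitted 6.64 ± 0.50 log2, adjusted p = 1.55e-04). IL6, the driver of the hepatic acute phase response, was at 12.75 and 13.21 log2 with dust, against 7.32 and 7.67 in control cells, a 44.6-fold rise (5.48 ± 0.52 log2, adjusted p = 4.56e-04). Both genes were high on both dust arrays. IL1A, an alarmin released from damaged epithelium, gave 11.52 and 11.80 log2 with dust, against 6.71 and 7.28 without (25.3-fold, 4.66 ± 0.57 log2, adjusted p = 0.00242). IL1B, whose protein the inflammasome activates, gave 11.79 and 12.20 log2 with dust, against 7.48 and 7.89 without (19.8-fold, 4.31 ± 0.40 log2, adjusted p = 4.44e-04). LIF, an IL-6 family cytokine, gave 9.69 and 9.84 log2 with dust, against 5.75 and 5.65 without (16.7-fold, 4.06 ± 0.52 log2, adjusted p = 0.003), a call lost when only the 6 BEAS-2B arrays were fitted (adjusted p up to 0.0528). These 3 genes were thus high on both dust arrays and low on both control arrays. IL24, an IL-10 family cytokine, rose by 2.28 ± 0.16 log2 (adjusted p = 1.30e-04), with 8.09 and 8.24 on the dust arrays and 5.65 and 6.12 on the control arrays, of which 1 was not above background. The other IL24 probe changed by 1.31 log2. GDF15, a stress-induced member of the TGF-beta family, rose by 1.17 ± 0.18 log2 (adjusted p = 0.00917), a call lost without dust replicate 1 or either control array (adjusted p up to 0.124).

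**Figure D2:**
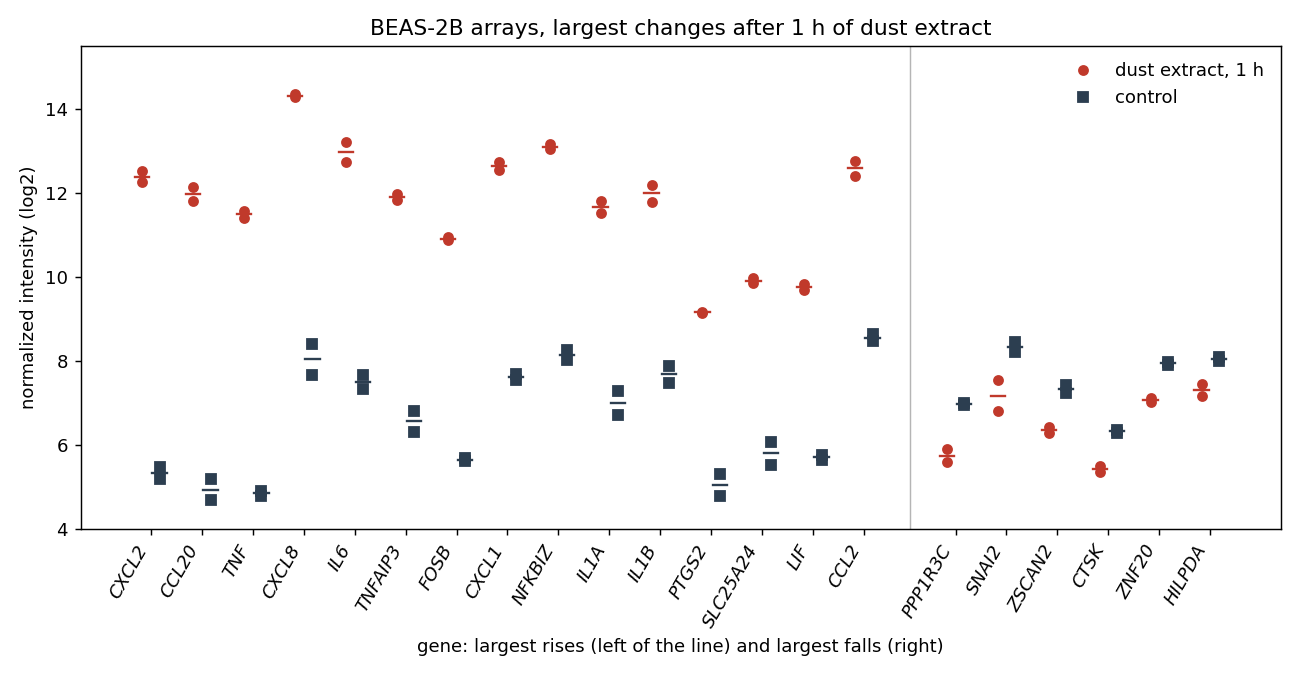
Normalized log2 intensity (vertical axis) on the 2 dust arrays (red circles) and the 2 control arrays (dark squares) of BEAS-2B cells, with short lines at group means, for the named genes with the 15 largest rises and the 6 largest falls (horizontal axis, rises left of the grey line). Genes were shown only where the groups do not overlap, so the dust arrays lie beyond both control arrays in each gene by that rule. For CXCL2, CCL20, TNF and PTGS2 both control arrays were not well above background.

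Of 24 genes listed for NF-kB feedback, 23 passed the filter and 10 rose, with a median over the 23 of 1.12 log2. The count was 6 to 7 without 1 of the 4 arrays compared and 14 without a 3 h array of BEAS-2B cells. TNFAIP3 encodes A20, a ubiquitin-editing enzyme that shuts off signalling upstream of NF-kB. Its level was 11.82 and 11.99 log2 on the dust arrays, against 6.32 and 6.80 on the control arrays (40.6-fold, 5.34 ± 0.48 log2, adjusted p = 3.19e-04). NFKBIZ, a nuclear IkB protein needed for secondary targets such as IL6, was at 13.04 and 13.17 log2 with dust, against 8.02 and 8.27 without (31.2-fold, 4.96 ± 0.26 log2, adjusted p = 1.29e-05). The other NFKBIZ probe changed by 0.93 log2, so the size of this rise depends on the probe. NFKBIA, which encodes IkB-alpha and holds NF-kB in the cytoplasm, had 13.98 and 13.95 log2 with dust, against 10.92 and 10.91 without (8.30-fold, 3.05 ± 0.25 log2, adjusted p = 1.75e-04). IER3, an early response gene that modulates survival signalling, had 14.44 on both dust arrays, against 11.29 and 11.56 log2 on the control arrays (8.07-fold, 3.01 ± 0.28 log2, adjusted p = 4.35e-04). The rise of ZC3H12A, an RNase also called regnase-1, was 10.9-fold (3.44 ± 0.39 log2, adjusted p = 0.00133). Smaller rises were those of TNFAIP2 (2.99 log2), NFKBIE (2.07), NFKB2 (1.19), NFKBID (1.05) and SOD2 (0.93), of which NFKBIE and NFKBID encode further IkB proteins, NFKB2 an NF-kB subunit and SOD2 a mitochondrial superoxide dismutase. Other inhibitors of the pathway did not pass the test: NFKBIB differed by 0.32 log2, TNIP1 by 0.58, TNIP2 by 0.19 and CYLD, a deubiquitinase, by 0.04 (adjusted p = 0.95, 0.233, 0.998 and 0.998). The 3 probes of SOD2 ranged from 0.03 to 1.02 log2, and its call was lost without dust replicate 2 or either control array (adjusted p up to 0.235).

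Immediate-early transcription factors formed the list with the most rises: 30 of 32 listed genes passed the filter, 5 with both control arrays not above background, and 16 rose, with a median over the 30 of 1.45 log2 (1.40 with genes dim in control cells at their bound). FOSB, an AP-1 subunit, was at 10.87 and 10.96 log2 on the dust arrays, against 5.62 and 5.68 on the control arrays, of which 1 was not above background. It rose 38.4-fold (5.26 ± 0.41 log2, adjusted p = 1.55e-04). FOS itself had 7.82 and 7.96 log2 with dust, against 5.03 and 5.42 in control cells, at least 4.73-fold higher (fitted 2.66 ± 0.45 log2, adjusted p = 0.0177). JUNB and FOSL1 rose by 2.31 and 2.30 log2 and JUN by 1.76. JUN was already at 10.78 and 10.58 log2 in control cells. The AP-1 genes FOSL2 and JUND differed by 0.43 and 0.37 log2 and were not called (adjusted p = 0.998 and 0.799). EGR1, a zinc finger factor induced by MAP kinases, was at 11.96 and 11.93 log2 with dust, against 9.77 and 9.83 without (4.41-fold, 2.14 ± 0.21 log2, adjusted p = 5.25e-04). EGR3 of the same family had 7.27 and 7.75 log2, against 4.41 and 4.47, at least 3.65-fold higher (fitted 3.07 ± 0.56 log2, adjusted p = 0.0274). ATF3, a stress-induced repressor, rose 9.63-fold, to 11.15 and 11.25 log2 on the dust arrays, against 7.96 and 7.90 on the control arrays (3.27 ± 0.35 log2, adjusted p = 0.00105).

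Among the other immediate-early factors, BHLHE40, a circadian and hypoxia-linked repressor, rose by 2.52 ± 0.21 log2 (12.70 and 12.59 with dust, 10.11 and 10.12 without), and CSRNP1, an AXIN1-induced nuclear protein, by 2.24 ± 0.21 log2. The nuclear receptors NR4A2 and NR4A1 were at least 4.53-fold and 1.20-fold higher, with both control arrays not above background. MYC rose by 1.31 log2 and IER2 by 1.48 log2, and KLF6 and KLF10, zinc finger factors, by 1.58 and 1.81 log2. The 3 probes of KLF10 ranged from 0.85 to 1.89 log2. Calls of FOS, EGR3, KLF6 and KLF10 were lost whichever of the 4 arrays was left out (adjusted p up to 0.194, 0.292, 0.166 and 0.344), and those of FOS and EGR3 also with the authors' value table (0.0501 and 0.0979). Over those 4 omissions the list's count of rises was 8 to 11.

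Feedback inhibitors of the MAP kinases rose in 7 of 18 measured genes, of 21 listed, with a median of 0.98 log2, and in 4 to 5 without 1 of the 4 arrays. DUSP1, the phosphatase of p38 and JNK, was at 12.79 and 12.69 log2 on the dust arrays, against 9.99 and 9.84 on the control arrays (7.11-fold, 2.83 ± 0.34 log2, adjusted p = 0.00207). DUSP5, a nuclear phosphatase of ERK, was at 12.26 and 12.19 log2 with dust, against 9.34 and 9.38 without (7.28-fold, 2.86 ± 0.30 log2, adjusted p = 7.38e-04). DUSP6, its cytoplasmic counterpart, rose by 1.77 ± 0.25 log2 (9.15 and 9.34 with dust, 7.52 and 7.43 without), a call lost without dust replicate 2 or either control array (adjusted p up to 0.0943). Of the other phosphatases of MAP kinases, DUSP2, DUSP4, DUSP8 and DUSP16 differed by 0.25, 1.03, 1.10 and 0.39 log2 and DUSP10, not above background in control cells, by a fitted 0.92 log2, none of them called (adjusted p = 0.0519 to 0.998). SPRY4, an inhibitor of receptor tyrosine kinase signalling, rose 5.36-fold (2.42 ± 0.27 log2, adjusted p = 0.00133), and ERRFI1, an inhibitor of the EGF receptor, 5.76-fold (adjusted p = 0.00432). PHLDA1 rose by 1.48 log2.

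Factors that degrade mRNAs of cytokines rose early as well, 3 of 10 measured of 11 listed. ZFP36, or tristetraprolin, which binds AU-rich elements, was at 11.91 and 11.80 log2 with dust, against 8.96 and 8.98 in control cells (7.40-fold, 2.89 ± 0.23 log2, adjusted p = 1.75e-04). ZC3H12A, described above, is counted here too. ZFP36L2, a relative of tristetraprolin, rose by 0.99 ± 0.18 log2 (adjusted p = 0.0307), a call lost without any 1 of the 4 arrays (adjusted p up to 0.334).

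EGF receptor ligands rose in 2 of 4 measured genes, of 8 listed, and in 0 to 1 without 1 of the 4 arrays. HBEGF, a heparin-binding ligand shed from epithelium, had 11.28 and 11.34 log2 on the dust arrays, against 7.82 and 7.93 on the control arrays (10.8-fold, 3.43 ± 0.47 log2, adjusted p = 0.00483), and TGFA had 8.20 and 8.36, against 7.40 and 7.52 (1.76-fold, 0.82 ± 0.15 log2, adjusted p = 0.0274). HBEGF lost its call without either dust array or control replicate 1 (adjusted p up to 0.067) and TGFA without any 1 of the 4 arrays (up to 0.307). Targets of serum response factor and YAP rose in 3 of 17 measured genes, of 19 listed, with a median of 0.31 log2. These were the matricellular genes CCN2 (4.65-fold, 2.22 ± 0.22 log2, adjusted p = 6.56e-04) and CCN1 (3.14-fold, 1.65 ± 0.21 log2, adjusted p = 0.0029), and F3. Intensities of CCN2 were 14.06 and 14.10 log2 with dust, against 11.73 and 11.99 without.

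Of 15 adhesion, prostaglandin and coagulation genes listed, 12 passed the filter and 6 rose, with a median of 1.66 log2. PTGS2, the inducible cyclooxygenase of prostaglandin synthesis, was at 9.18 and 9.14 log2 on the dust arrays, against 4.78 and 5.31 on the control arrays, at least 11.4-fold higher (fitted 4.12 ± 0.46 log2, adjusted p = 0.00133). The other PTGS2 probe changed by a fitted 2.98 log2, so this bound holds only for the probe used. ICAM1, the epithelial ligand of leukocyte integrins, was at 8.40 and 8.50 log2 with dust, against 5.91 and 5.30 without, 1 control array not being above background (7.22-fold, 2.85 ± 0.53 log2, adjusted p = 0.0293). Some genes of clotting and its control also rose: F3, tissue factor, by 1.67 ± 0.33 log2, THBD, thrombomodulin, by 1.65 ± 0.30, PLAU, urokinase, by 1.77 ± 0.23, and PLAUR, the urokinase receptor, by 1.87 ± 0.30 log2 (0.59 to 1.95 over its 3 probes). PLAT, TFPI and TFPI2 of the same list differed by 0.74, -0.10 and 0.46 log2 and were not called (adjusted p = 0.998, 0.998 and 0.258). Without 1 array this list's count of rises was 1 to 3: ICAM1, F3 and THBD lost their calls without any 1 of the 4 arrays (adjusted p up to 0.265, 0.414 and 0.265), PLAUR without dust replicate 2 or either control array (up to 0.166) and PLAU without control replicate 1 (up to 0.0523). VCAM1, a leukocyte adhesion protein singled out after its values were seen, was at 7.41 and 8.10 log2 with dust, against 4.41 and 4.44 without, both control arrays being not above background, and was not called (adjusted p = 0.325); its 3 h arrays, at 9.76 and 5.33, lay far apart. Of 9 measured metalloproteinases and inhibitors, ADAMTS1, a secreted protease of proteoglycans, rose 9.83-fold, with 9.25 and 9.36 log2 on the dust arrays and 5.85 and 6.17 on the control arrays (3.30 ± 0.26 log2, adjusted p = 1.55e-04), and no other member was called.

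Of 12 measured genes of the KLF and zinc finger repressor list, KLF6 and KLF10 rose, with a median of 0.79 log2. Several lists had few rises. Of 13 measured pattern recognition and protease-activated receptor genes, TICAM1, the adaptor TRIF of TLR3 and TLR4, rose (1.38 ± 0.19 log2), and of 26 interferon-stimulated genes, IRF1, an interferon regulatory factor that NF-kB also induces, rose (2.46 ± 0.36 log2, 13.18 and 13.11 with dust, 10.70 and 10.67 without). The median of the 26 interferon-stimulated genes was -0.08 log2. PIM1, a cytokine-induced kinase, and SOCS3, an inhibitor of cytokine receptors, rose among 17 measured genes of cytokine signalling, by 2.26 ± 0.31 log2 and at least 3.64-fold. The bound of SOCS3 holds for the probe used, since its 2 probes changed by a fitted 0.73 and 2.27 log2. Calls of TICAM1, IRF1 and SOCS3 were lost without any 1 of the 4 arrays (adjusted p up to 0.0742, 0.0807 and 0.172), and that of PIM1 without either dust array or control replicate 2 (up to 0.0785).

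In the unfolded protein and integrated stress response list 3 of 19 measured genes rose. PPP1R15A (GADD34), which restores translation, was at 12.54 and 12.34 log2 on the dust arrays, against 10.28 and 10.21 on the control arrays (4.58-fold, 2.19 ± 0.15 log2, adjusted p = 9.26e-05), and the others were ATF3 and DDIT3 (CHOP; 1.22 ± 0.24 log2). The median of the 19 was 0.09 log2. Of 17 measured p53 targets, GADD45A rose by 1.86 ± 0.23 log2, PLK2 by 1.66 ± 0.31 and GDF15 as given above, and PLK3 was at least 1.86-fold higher; the list's median was 0.14 log2, and its count of rises was 1 to 2 without 1 of the 4 arrays. The members of these lists that rose are also known as stress or early response genes. Of 14 measured genes of the cAMP response 6 rose (1.1% of all features did), and 3 of the 14 were not above background in either group. The median was 0.44 log2, and 0.24 with genes dim in control cells at their bound. Those that rose were FOSB, ATF3, NR4A2 and NR4A1, counted above as immediate-early factors, DUSP1, counted above as MAP kinase feedback, and SIK1. SIK1 is a kinase of CREB coactivators (0.85 log2). TGIF1, a repressor of SMAD proteins, rose by 1.37 ± 0.24 log2 with CCN2 among 16 measured TGF-beta genes. ADM, adrenomedullin, was the 1 called gene of 14 hypoxia targets, with 12.60 and 12.58 log2 with dust, against 10.47 and 10.46 without (4.35-fold, adjusted p = 0.00337). TIPARP, a poly(ADP-ribose) transferase, was the 1 called gene of 9 aryl hydrocarbon receptor targets (0.84 ± 0.16 log2), while CYP1A1 changed by 0.18 ± 0.21 log2 and CYP1B1 by 0.16 ± 0.18 log2 (adjusted p = 0.998 each). TRIB1, a pseudokinase, was the 1 called gene of 17 FOXO and starvation genes, 13.8-fold higher (3.79 ± 0.34 log2, adjusted p = 3.24e-04). Calls lost on leaving out arrays were those of TIPARP and PLK2 without any 1 of the 4 arrays (adjusted p up to 0.40 and 0.288), TGIF1 without any 1 of the 4 (0.185), DDIT3 without dust replicate 2 or either control array (0.415), PLK3 without either dust array or control replicate 2 (0.215) and ADM without dust replicate 2 (0.0504).

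**Figure D3:**
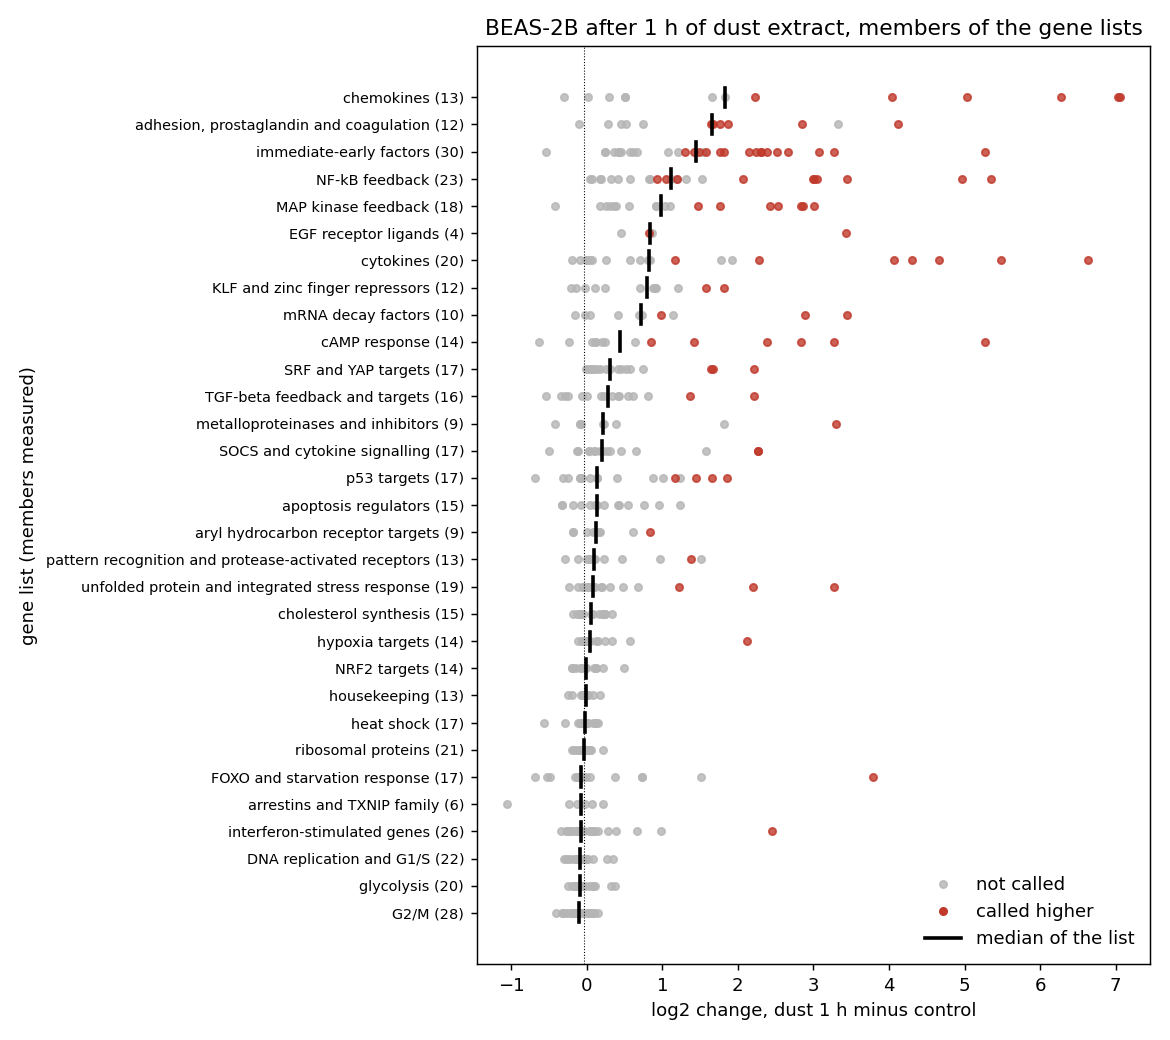
Change of every measured member of each gene list in BEAS-2B cells after 1 h of dust extract relative to control (log2, horizontal axis), with 1 row per list, the number measured in parentheses, the list's median as a black bar and the median of all features as a dotted line. Red points are members called higher at an adjusted p under 0.05, 16 of 30 immediate-early factors and 10 of 23 NF-kB feedback genes among them, and no list member was called lower.

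No member was called in either direction in the lists of NRF2 targets (14 measured, median -0.02 log2), heat shock (17, -0.03), glycolysis (20, -0.09), cholesterol synthesis (15, 0.05), G2/M (28, -0.10), DNA replication and G1/S (22, -0.09), apoptosis regulators (15, 0.13), arrestins and the TXNIP family (6, -0.08), ribosomal proteins (21, -0.04) and housekeeping (13, -0.02). With 1.1% of all features called higher, a count of 0 in lists of this size is near the background. HMOX1, heme oxygenase and a classic NRF2 target, was at 7.32 and 7.08 log2 on the dust arrays, against 6.69 and 6.72 on the control arrays, a difference of 0.49 ± 0.36 log2 that was not called (adjusted p = 0.998). PMAIP1, a BH3-only protein, differed by 1.24 ± 0.27 log2 (adjusted p = 0.0632), and BCL10, an NF-kB adaptor, by 0.95 ± 0.24 (adjusted p = 0.125). TXNIP, which restrains glucose uptake, had 9.77 and 9.36 log2 with dust, against 10.68 and 10.55 without, a difference of -1.05 ± 0.30 log2 that did not pass the threshold (adjusted p = 0.235).

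Of the 12 falls, 7 were named genes, none of them in a list, and 6 of these were above background on both arrays of a group as the naming rule asks. PPP1R3C, a glycogen-targeting subunit of protein phosphatase 1, had 5.59 and 5.91 log2 on the dust arrays, of which 1 was not above background, against 6.96 and 7.01 on the control arrays. It fell 2.35-fold (-1.24 ± 0.15 log2, adjusted p = 0.00242). SNAI2, the transcription factor Slug of epithelial plasticity, was at 6.80 and 7.55 log2 with dust, against 8.22 and 8.46 in control cells (-1.16 ± 0.21 log2, adjusted p = 0.0263). Its dust replicates lay further apart than its control replicates, and the groups did not overlap, as the naming rule asks. Its call was lost when only the 4 arrays compared or only the 6 BEAS-2B arrays were fitted. On the 1 h and control arrays of THP-1 cells, which enter its SE, SNAI2 was not above background. ZSCAN2 and ZNF20, zinc finger proteins, fell by 0.97 and 0.87 log2, CTSK, a lysosomal collagenase, by 0.89 log2 and HILPDA, a lipid droplet protein, by 0.73 log2. The other ZSCAN2 probe changed by -0.15 log2. ZNF792, another zinc finger gene, was not well above background on either dust array (fitted -1.08 log2). Of the 6 calls, 5 were lost when some array was left out: those of ZSCAN2, ZNF20 and HILPDA without any 1 of the 4 arrays (adjusted p up to 0.413, 0.367 and 0.506), those of SNAI2 and CTSK without dust replicate 1 or either control array (0.251 and 0.106), and PPP1R3C kept its call. CTSK was not called with the authors' value table either (adjusted p = 0.0501). The call of HILPDA was lost under 16 of 26 alternatives, array omissions included, with median scaling, no filter and an intensity trend among them.

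Genes outside the lists were also among the largest rises. SLC25A24, a mitochondrial ATP-magnesium and phosphate carrier, was at 9.85 and 9.96 log2 on the dust arrays, against 5.53 and 6.07 on the control arrays, of which 1 was not above background (17.3-fold, 4.11 ± 0.42 log2, adjusted p = 7.26e-04). Its other probe changed by -0.03 log2, so its rise rests on 1 of 2 probes. EDN1, the vasoconstrictor endothelin, was at 11.998 and 11.87 log2 with dust, against 8.19 and 8.24 without (13.1-fold, 3.72 ± 0.36 log2, adjusted p = 5.17e-04). G0S2, an inhibitor of triglyceride lipolysis, was at least 4.52-fold higher (adjusted p = 0.00679), C1QTNF1 rose 3.16-fold (0.33 to 1.66 log2 over its 2 probes), and COXFA4L3, an NDUFA4-like gene, 2.26-fold. LAMB3, the laminin-332 subunit of basal epithelium, was the 1 epithelial marker called, at 10.999 and 11.03 log2 with dust, against 9.64 and 9.46 without (1.47 ± 0.30 log2, adjusted p = 0.0497). Calls of LAMB3 and COXFA4L3 were lost without any 1 of the 4 arrays (adjusted p up to 0.379 and 0.416), and that of G0S2 without either dust array or control replicate 1 (up to 0.105).

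Which of these changes were brief was asked by setting 3 h of dust against 1 h, with no control array in the difference. At 3 h 219 features were higher than at 1 h (1.41%) and 203 lower (1.31%), together 422 (2.72%), and the count was 78 and 106 without 1 h dust replicate 1 and 2, 250 without either control array, and 388 and 314 without 3 h replicate 1 and 2. Of 30 measured immediate-early factors 14 were called lower at 3 h than at 1 h and none higher. FOSB was at 6.91 and 5.64 log2 at 3 h, against 10.87 and 10.96 at 1 h (-4.64 ± 0.41 log2, adjusted p = 3.94e-04). EGR1 was at 10.11 and 9.48 log2 at 3 h, against 11.96 and 11.93 at 1 h (-2.15 ± 0.21 log2, adjusted p = 5.94e-04), and its 3 h level differed from control by -0.01 log2 (adjusted p = 0.993). ATF3 had 9.16 and 8.09 log2 at 3 h, BHLHE40 10.91 and 10.33, CSRNP1 9.52 and 8.91, and KLF10 6.26 and 4.91, lower than at 1 h by 2.57, 2.02, 1.80 and 2.05 log2. FOS and EGR3 were lower by a fitted 2.80 and 2.90 log2 and were not above background on either 3 h array. KLF6 differed by -0.80 log2 and was not called (adjusted p = 0.172). ZFP36 was at 9.83 and 8.98 log2 at 3 h (-2.45 ± 0.23 log2 against 1 h), DUSP1 at 10.80 and 9.90 (-2.40 ± 0.34) and NFKBIZ at 10.81 and 9.98 (-2.71 ± 0.26; adjusted p = 5.94e-04, 0.00555 and 5.94e-04).

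Of 13 measured chemokines 1 was called lower at 3 h than at 1 h and 3 higher, against 1.31% and 1.41% of all features. CXCL2 was lower at 3 h, with 10.76 and 8.59 log2, than at 1 h, with 12.26 and 12.52 (-2.72 ± 0.54 log2, adjusted p = 0.026), and TNF was lower too, with 9.54 and 7.45 log2, against 11.41 and 11.57 at 1 h (-2.99 ± 0.50 log2, adjusted p = 0.0119). The 3 h replicates of both genes were far apart, and the groups did not overlap. Their calls were lost without 4 and 2 of the 12 arrays (adjusted p up to 0.172 and 0.10). For CCL20, CCL2 and IL6 1 array at 3 h lay above both 1 h arrays and the other below both: CCL20 had 12.80 and 8.81 log2 at 3 h, against 11.80 and 12.14 at 1 h, CCL2 had 13.80 and 10.84, against 12.41 and 12.77, and IL6 had 13.34 and 11.17, against 12.75 and 13.21. The same held for CXCL8, with 14.51 and 13.58 log2 at 3 h, against 14.36 and 14.27 at 1 h, and CXCL1, with 13.06 and 11.72, against 12.55 and 12.74. None of these 5 genes was called between 3 h and 1 h (adjusted p = 0.56 to 0.911), and with such replicates their course between the times is not settled. CXCL5 was higher at 3 h, with 9.92 and 9.40 log2, against 6.79 and 7.41 at 1 h (2.56 ± 0.24 log2, adjusted p = 5.04e-04), as was IL24, with 10.33 and 10.37, against 8.09 and 8.24 (2.19 ± 0.16 log2, adjusted p = 1.19e-04). SOD2 had 12.78 and 12.94 log2 at 3 h, COXFA4L3 11.38 and 10.52, C1QTNF1 11.45 and 10.77, and TGFA 9.88 and 9.55, higher than at 1 h by 2.02, 2.41, 1.89 and 1.43 log2. HILPDA, whose call as lower at 1 h was lost under 16 of 26 alternatives, was at 8.34 and 8.15 log2 at 3 h, against 7.45 and 7.16 at 1 h (0.94 log2, adjusted p = 0.00958). Of the 34 named genes whose 3 h and 1 h levels differed, 24 stayed called without either 3 h array and 15 without any 1 of the 12 arrays. The 10 that lost their call without a 3 h array were IER3, DUSP5, ZFP36L2, IRF1, PIM1, NR4A2, CCND1, FOS, CYP1A1 and EGR3, and CXCL2, TNF, HILPDA, DUSP1, CCN1, ATF3, ADM, KLF10 and TRIB1 lost theirs without some other array.

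The same genes in THP-1 cells give the response of a monocytic line, at 0.1% rather than 0.25% extract, so line and dose cannot be told apart. In THP-1 cells 1 h of dust raised 195 features (1.26%) and lowered 60 (0.387%), 255 in all (1.65%). Of the 171 rises in BEAS-2B cells 52 (30.4%) were also called higher in THP-1 cells, where they were 26.7% of the rises. The dust effect itself differed between the lines for 88 features (0.568%), 41 of them larger in BEAS-2B cells (0.265%) and 47 smaller (0.303%). CXCL8 changed by 6.28 log2 in BEAS-2B and 6.88 in THP-1 cells, TNF by 6.64 and 6.24, and CXCL2 by 7.06 and 6.37, with differences between the lines of -0.60 ± 0.44, 0.39 ± 0.71 and 0.69 ± 0.76 log2 that were not called (adjusted p = 0.971, 1.00 and 1.00). Control arrays were not above background for TNF and CXCL2 in BEAS-2B cells and for CXCL2 in THP-1 cells, so that these changes are fitted values; at its bound the change of TNF in BEAS-2B cells was 5.84 log2, below that in THP-1 cells, and the direction of this difference is not settled.

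IL6 was a case of response in BEAS-2B cells. In BEAS-2B cells it was at 12.75 and 13.21 log2 with dust, against 7.32 and 7.67 in control cells, and in THP-1 cells at 5.03 and 5.24 with dust, against 4.57 and 4.67 without, none of the 4 THP-1 arrays being above background (difference of the effects 4.96 ± 0.73 log2, adjusted p = 0.014). EDN1, SPRY4, CXCL5, IL24 and G0S2 were likewise not above background on any of those THP-1 arrays, with effects larger in BEAS-2B cells by 3.61, 2.30, 2.16, 2.26 and 2.94 log2. TRIB1, DUSP6, GADD45A, DUSP5, BHLHE40 and TGIF1 were above background in both lines, and their dust effects were larger in BEAS-2B cells by 3.49, 2.96, 2.79, 2.52, 2.29 and 1.99 log2. DUSP6 and GADD45A stood at lower levels with dust in THP-1 cells, with changes of -1.19 and -0.93 log2 (adjusted p = 0.0444 and 0.0861). Only the fall of DUSP6 was called there. The opposite held for EGR1, whose effect was 2.79 ± 0.30 log2 smaller in BEAS-2B cells (2.14 against 4.94 log2 in THP-1 cells, adjusted p = 0.00204), and for IL1B, IER3, CCN2 and SOD2. EGR1 levels with dust were alike, 11.96 and 11.93 log2 in BEAS-2B and 11.85 and 12.25 in THP-1 cells. Its control levels were 9.77 and 9.83 against 7.16 and 7.07. With dust IER3 and CCN2 stood higher in BEAS-2B than in THP-1 cells, and IL1B and SOD2 lower. IER3, at 14.44 on both BEAS-2B dust arrays, lay near the highest value of the arrays, 14.66, and at 10.33 and 10.09 in THP-1 cells. THP-1 control arrays were not above background for IER3 and CCN2, and 1 of them not for IL1B, so that their THP-1 changes are fitted values. Of these 18 differences among named genes, 4 stayed called without any 1 of the 12 arrays: IL24, EGR1, GADD45A and DUSP6.

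**Figure D4:**
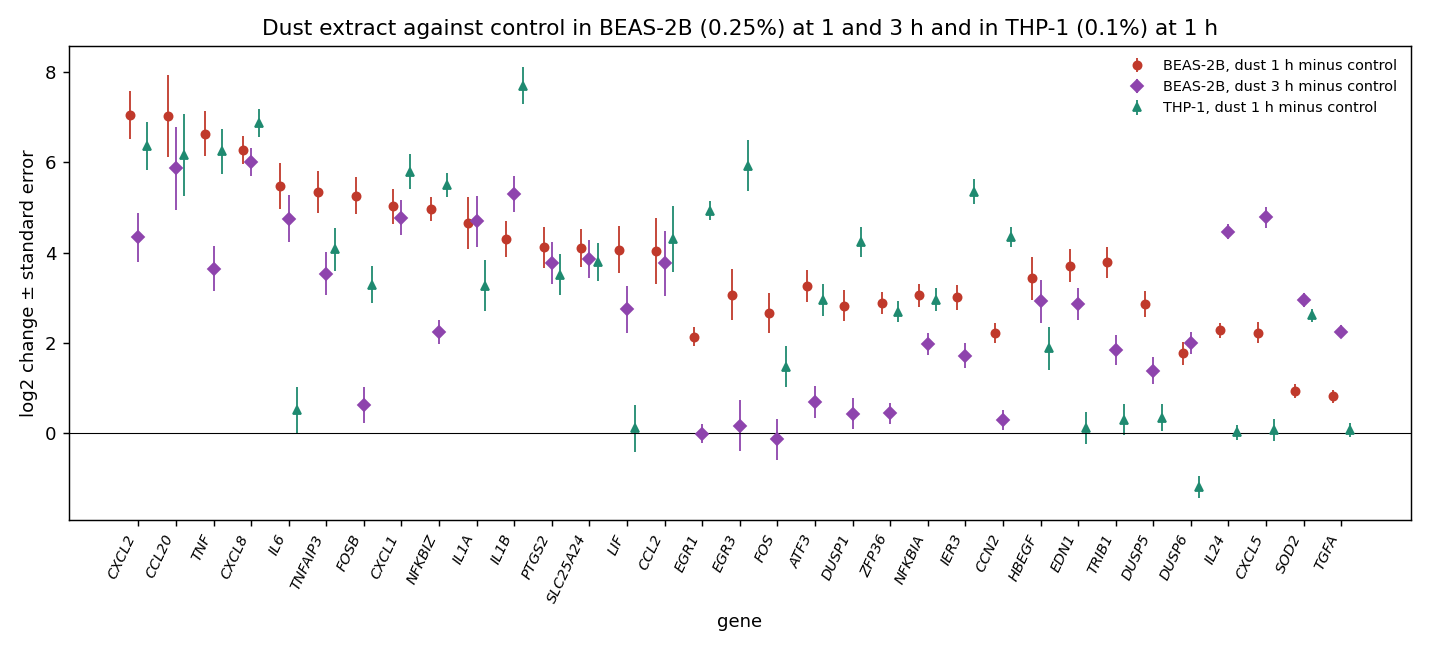
Change with dust extract relative to control (log2, vertical axis, bars for the standard error) of named genes (horizontal axis) in BEAS-2B cells after 1 h (red circles), BEAS-2B cells after 3 h (purple diamonds) and THP-1 cells after 1 h (green triangles). The 1 h and 3 h changes of BEAS-2B cells share their control arrays; EGR1, EGR3 and FOS lie near 0 at 3 h, and LIF, EDN1 and IL24 near 0 in THP-1 cells.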

How the data were processed

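RNA of BEAS-2B and THP-1 cells was hybridised to an Illumina human expression BeadChip, 12 arrays on 1 chip per the labels. The deposited table of signals holds probe intensity on a linear scale, not background-subtracted, as read from its values, with detection p-values and a count of beads per probe per the file headers. The submitters' processing notes name GenomeStudio 2011.1. The step size of the deposited detection p-value corresponds to 770 negative control probes. The authors' value table is intensity on a linear scale that lay within 0.821% of quantile means of the deposited signals, a step inferred from the values. Signals were background-corrected and quantile-normalized with neqc of limma 3.58.1 in R 4.3.3 (offset 16, log2 scale). Probes needed a detection p under 0.01 on both arrays of 1 group, which kept 19045 of 47320; of several probes of a gene, the one with the highest mean was used (2906 genes). Of all probes, 30112 had 1 symbol, 8 several and 17200 none, and 30073 were updated through the Entrez number to GRCh38.p14 names.

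A model with 6 group means was fitted over all 12 arrays with lmFit and eBayes, leaving 6 residual degrees of freedom to which the prior added 4.3, and p-values were adjusted by Benjamini-Hochberg over all 15489 features. "Well above background" means a detection p under 0.01. "At least" folds compare the dust mean with, per control array, the higher of the probe's own value and the lowest signal well above background. They hold for the probe used, and other probes of the gene can differ. Named genes were the 15 largest rises and 10 largest falls (6 qualified) among called genes above background on both arrays of a group and with groups that do not overlap, up to 4 called members with the smallest p of each of 31 lists (2 where none was called), 19 followed genes and the 5 largest in each direction of the differences with 3 h and with THP-1 cells. Members and lists were chosen with earlier results of these data known. Members outside this rule that are named as not called, and the markers singled out, were picked with their values in view. The fit was also run on data simulated from its own fitted variances, with the size of this table. Such data meet the model's assumptions by construction, so the run cannot show whether these arrays do. Alternatives are given in the closing section.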

Additional observations from a re-analysis of the deposited data

Results flagged for a closer look

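Results are listed here where the dust effect differed between conditions by a test of the difference itself in the limma fit (adjusted p under 0.05). Groups of 2 arrays were not tested for an outlying array.

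Between the lines at 1 h, with 0.25% extract for BEAS-2B and 0.1% for THP-1 cells, the dust effect was larger in BEAS-2B cells for these named genes, as BEAS-2B minus THP-1 on the log2 scale: IL6 4.96, EDN1 3.61, TRIB1 3.49, DUSP6 2.96, G0S2 2.94, GADD45A 2.79, DUSP5 2.52, SPRY4 2.30, BHLHE40 2.29, IL24 2.26, CXCL5 2.16 and TGIF1 1.99. It was smaller in BEAS-2B cells, or of opposite sign, for IL1B -3.39, EGR1 -2.79, IER3 -2.34, CCN2 -2.14, SOD2 -1.67 and PPP1R3C -1.35. IL6, EDN1, G0S2, SPRY4, IL24, CXCL5 and PPP1R3C were not well above background on any of the 4 THP-1 arrays compared, CXCL5 and G0S2 on neither BEAS-2B control array, IER3 and CCN2 on neither THP-1 control array, and IL1B on 1 of them, so that these differences are fitted values. Of these 18 differences, all kept their call without either 3 h array of BEAS-2B cells, and 14 lost it without at least 1 of the 12 arrays. The cause was not tested.

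Between the times in BEAS-2B cells, the effect at 3 h minus that at 1 h was positive for CXCL5 2.56, COXFA4L3 2.41, IL24 2.19, SOD2 2.02, C1QTNF1 1.89, TGFA 1.43, HILPDA 0.94 and CCND1 0.62 (log2). It was negative for FOSB -4.64, TNF -2.99, EGR3 -2.90, FOS -2.80, CXCL2 -2.72, NFKBIZ -2.71, ATF3 -2.57, ZFP36 -2.45, DUSP1 -2.40, EGR1 -2.15, KLF10 -2.05, BHLHE40 -2.02, ADAMTS1 -2.01, ADM -1.95, TRIB1 -1.94, CCN2 -1.93, CSRNP1 -1.80, IRF1 -1.61, CCN1 -1.54, DUSP5 -1.48, PIM1 -1.47, NR4A2 -1.41, IER3 -1.29, PPP1R15A -1.25, CYP1A1 -1.19 and ZFP36L2 -0.90 (log2). FOS and EGR3 were not well above background on either 3 h array, and FOSB and KLF10 on 1 of them. CYP1A1, which encodes a dioxin-inducible enzyme, was at 6.75 and 6.11 log2 at 3 h, against 7.77 and 7.47 at 1 h, and CCND1, cyclin D1, at 11.50 and 11.83, against 11.11 and 10.998; neither was called at 1 h against control.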

How the results depend on the processing

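The fit on all 12 arrays called 183 features in BEAS-2B cells at 1 h, 171 higher and 12 lower. The count was within 1.5 times of that without background correction, with median scaling, with the authors' value table, without a filter, with other detection thresholds, with every kept probe, with the mean over probes and with an intensity trend, except that 7 fell with detection on all 4 arrays compared, where 52 features differed between the lines rather than 88. It was 113 (106 higher, 7 lower) on the 6 BEAS-2B arrays and 112 (103 higher) when these were fitted after normalization on 12 arrays, an alternative chosen after seeing the data. It was 398 (341 higher, 57 lower) on the 4 arrays compared and 434 (347 higher, 87 lower) with array weights, which also gave 646 features between 3 h and 1 h rather than 422. The share of calls that were higher was 93.4%, and 80% with array weights. Leaving out 1 array at a time gave 69 to 280 features at 1 h, 68 to 259 higher and 1 to 21 lower, 30 to 144 between the lines, and 78 to 472 between 3 h and 1 h. A replicate block gave 181 features, 163 of them among the 183; the arrays share only a number (correlation of replicate deviations 0.203 between 1 h dust and control, -0.10 to 0.341 over all pairs of groups), and KLF10, TIPARP, TGFA, F3, PLK2 and LAMB3 were not called under it. SLC25A24 changed by -0.029 log2 with detection on all 4 arrays, where its other probe was used. Of 71 called named genes, 33 kept their call under every alternative; 20 lost it on the 6 BEAS-2B arrays, LIF and CCL2 among them, 21 without a filter, and CTSK, FOS and EGR3 without background correction and with the authors' value table. With 2 arrays a group, precision is limited by the number of arrays, and 29 rises by the background of both control arrays.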

Other observations

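The genes in this section were chosen after their values were seen. Among transcription factors outside the lists, the following rose at 1 h in BEAS-2B cells: ELF3, an epithelium-specific ETS factor, by 2.16 ± 0.40 log2 (SE; 9.77 and 9.47 with dust, 7.62 and 7.30 in control cells, adjusted p = 0.0274), SOX9, a factor of airway progenitors, by 2.12 ± 0.21 log2 (10.25 and 10.10 against 7.95 and 8.17, adjusted p = 6.75e-04) and GRHL3, a grainyhead factor of barrier repair, by 1.12 ± 0.19 log2 (adjusted p = 0.0195). OVOL1, a repressor of mesenchymal genes, was at 7.28 and 7.24 log2 with dust, against 4.58 and 4.69 without, at least 3.06-fold higher (adjusted p = 1.15e-05), while SNAI2 fell as reported above. TWIST1, a mesenchymal factor, was at 9.02 and 9.08 log2 with dust, against 8.46 and 8.50 without, and KLF5 and GRHL2, epithelial factors, differed by 0.70 and 0.16 log2, none of them called (adjusted p = 0.998, 0.303 and 0.998). The keratins KRT23 and KRT34 were 2.80-fold and at least 1.38-fold higher (adjusted p = 0.00157 and 0.0142), and SOX4 rose by 1.06 log2 (adjusted p = 0.00916).

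Other called genes, picked for what they encode and with no list behind them, include secreted factors: PDGFB rose by 1.73 log2, STC1 by 1.66, BMP2 by 1.64, BDNF by 1.34, FST by 1.34 and DKK1 by 1.13 log2, and FGF5 was at least 1.71-fold higher. The ephrins EFNA1 and EFNB2 rose by 1.97 and 1.53 log2 and the ephrin receptor EPHA2 by 1.59 log2. HAS3, a hyaluronan synthase, rose by 2.15 log2, and PTGER4, the prostaglandin E2 receptor EP4, by 2.58 log2, beside PTGS2 of prostaglandin synthesis. LTB, lymphotoxin beta, was at 11.09 and 11.05 log2 with dust, against 8.78 and 8.64 without (5.13-fold, adjusted p = 5.25e-04), MAP3K8, a kinase of the TNF and Toll-like receptor pathways, rose 10.6-fold (adjusted p = 0.00916), and NUAK2, an AMPK-related kinase, 6.34-fold (adjusted p = 6.37e-05).

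Of 33 probes annotated to microRNA genes 4 were called higher with dust, 29 were not called and none was called lower. Of all features 1.1% were called higher and 0.0775% lower. MIR302C was at least 5.35-fold higher, MIR221 at least 2.78-fold, MIR1275 at least 2.01-fold and MIR21 at least 1.53-fold. Both control arrays were not well above background in each, so that a fall of these 4 could not have been seen. The array measures the transcript at the probe, and mature microRNAs were not measured. The unnamed probe ILMN_1661861 rose by 6.77 ± 0.55 log2 (12.33 and 12.92 with dust, 5.74 and 5.96 without). PTX3, a soluble pattern recognition protein, was at 7.42 and 7.72 log2 with dust, against 4.43 and 4.34 without, and was not called (adjusted p = 0.12); its 3 h arrays, at 8.91 and 5.53 log2, lay far apart.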
